A study of Mus musculus with 6 samples.

Results

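Antioxidant defence genes encode the enzymes and carriers that dispose of superoxide and peroxides, and 10 of them were examined in LKS+ cells of Apcmin and wild-type (WT) mice: Sod1, Sod2, Cat, Gpx1, Gpx4, Prdx1, Prdx2, Txn1, Txnip and Nfe2l2. A gene was measured by the probe sets annotated to its symbol alone, and the brightest of these, averaged across the 6 arrays, stood for the gene. By this rule 9 of the 10 genes were measured, among 18193 genes in all. Prdx1 was not, because each of its 5 probe sets is also annotated to Gm21399.

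LKS+ cells are lineage-negative, c-Kit-high, Sca-1-positive marrow cells, the compartment of hematopoietic stem cells and multipotent progenitors. There were 3 arrays from Apcmin mice, in which the Min mutation truncates Apc, a scaffold of the complex that degrades beta-catenin, and 3 arrays from WT mice. The labels name no treatment of either group and give no age, strain background or sex. Cells were sorted per mouse, RNA was amplified linearly and hybridized to Affymetrix mouse expression arrays. Each array was taken as a separate mouse, which the labels do not state outright, so the p-values measure only the spread between these arrays. The series title presents the Apcmin mouse as a model of altered stem cell function and of myeloproliferative and myelodysplastic disease, and the comparison here asks whether transcripts of antioxidant defence differ between the genotypes.

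Superoxide is converted to hydrogen peroxide by superoxide dismutases, and the peroxide is removed by catalase, by glutathione peroxidases and by peroxiredoxins, which thioredoxin keeps reduced. Txnip binds thioredoxin and restrains it, and Nfe2l2 encodes Nrf2, the transcription factor that switches on many antioxidant enzymes when its inhibitor Keap1 is inactivated. Blood stem cells are known to be sensitive to reactive oxygen species, which push them out of quiescence.

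Promoter sequences of 3 measured genes are shown for the letters that known regulators of this defence read, so that the measured genes can be set beside their promoters. They come from RefSeq (GRCm38.p6) and are written 5′ to 3′ along the gene's strand. Capitals mark the letters TGACNNNGC, the core of the antioxidant response element bound by Nrf2, or a paired E-box, CACGNG repeated after a gap of 5 bases, read by the glucose-sensing factors Mlxip and Mlx.
Nfe2l2, chr2:75704875-75704913, minus strand: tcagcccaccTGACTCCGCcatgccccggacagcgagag
Sod1, chr16:90220686-90220734, plus strand, with the match on the opposite strand: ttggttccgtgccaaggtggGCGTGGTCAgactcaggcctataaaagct
Txnip, chr3:96557852-96557908, plus strand: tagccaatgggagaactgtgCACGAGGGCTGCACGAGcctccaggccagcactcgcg
Both strands were searched from 250 bases before to 50 bases after each annotated start, and the motifs did not overlap in these genes. The Nrf2 core letters were found for 3 of the 10 genes (Sod1, Prdx1 and Nfe2l2), in 14% of the 27025 genes with a promoter window and in 12.4% of all 32851 windows. The paired E-box was found for 1 of the 10, Txnip, in 0.0555% of those genes and in 0.0487% of all windows. A match is a description of these letters, and the arrays did not measure binding.

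The arrays were alike in overall level, with median log2 intensities between 4.14 and 4.17 in Apcmin and between 4.12 and 4.18 in WT. Of 8 measured markers of stem and progenitor cells, Kit was at 9.87 ± 0.18 in Apcmin and 9.79 ± 0.18 in WT, and Cd34 at 10.94 ± 0.11 in Apcmin and 10.94 ± 0.05 in WT (log2 intensity, SD, n = 3 each). The dimmest, Slamf1, was at 5.91 ± 0.23 in Apcmin and 6.13 ± 0.21 in WT. Some granulocyte and erythroid markers were brighter than Kit and Cd34, among them Mpo (12.18 in Apcmin and 12.16 in WT) and Car2 (12.01 in Apcmin and 11.89 in WT). The purity of the sort was not tested. Y-linked transcripts were high on 1 array of each genotype, with Eif2s3y at 9.39 on Apcmin replicate 2 and 9.20 on WT replicate 3, and at most 1.58 on the other arrays. Xist went the other way, at 3.14 and 2.48 on these arrays and at least 10.63 on the others. That is the transcript pattern of male mice on these arrays and of female mice on the others, though the labels give no sex. The arrays high in Y-linked transcripts had the lowest summed intensity of 9 erythroid markers (5397 on Apcmin replicate 2 and 5143 on WT replicate 3, and at least 6981 elsewhere). For 0 of the 9 antioxidant genes did these arrays both lie above or both lie below the other arrays, which was so for 16.3% of all genes.

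None of the antioxidant defence genes differed between Apcmin and WT beyond the spread between arrays. In limma with Benjamini-Hochberg adjustment 0 of the 9 genes had an adjusted p under 0.05, as was the case for 0 of 45037 probe sets on the array (0%), and their lowest adjusted p was 0.954. That value was also the lowest over all probe sets. Probe sets with quite different unadjusted p-values share it, so an adjusted p of 0.954 does not rank the genes that have it. At an unadjusted p under 0.05 there were 0 of 9, against 3.11% of all genes. The Apcmin and WT values overlapped in all 9, where 7.73% of all genes had values that did not overlap. The mean was higher in Apcmin for 5 and lower for 4, with a median difference (Apcmin minus WT, log2 scale) of 0.003. The direction over all genes depended on brightness: the median was 0.02 over the 4871 genes whose mean log2 intensity reached 8 (2780 higher and 2091 lower), 0.02 over the 8658 genes that reached 6 (4874 higher and 3784 lower) and -0.12 over the 9535 dimmer genes (2945 higher and 6590 lower). Over all 18193 genes it was -0.04. All 9 antioxidant genes reached 8, so genes as bright are the closer comparison, and the antioxidant median lay slightly below theirs. After a further quantile normalization the medians were -0.011 in the antioxidant genes, 0.0005 over the genes that reached 8 and -0.06 over the dim ones. The median size of the difference, whatever its sign, was 0.07 in the antioxidant genes, 0.08 over the genes that reached 8 and 0.15 over all genes.

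**Figure D1:**
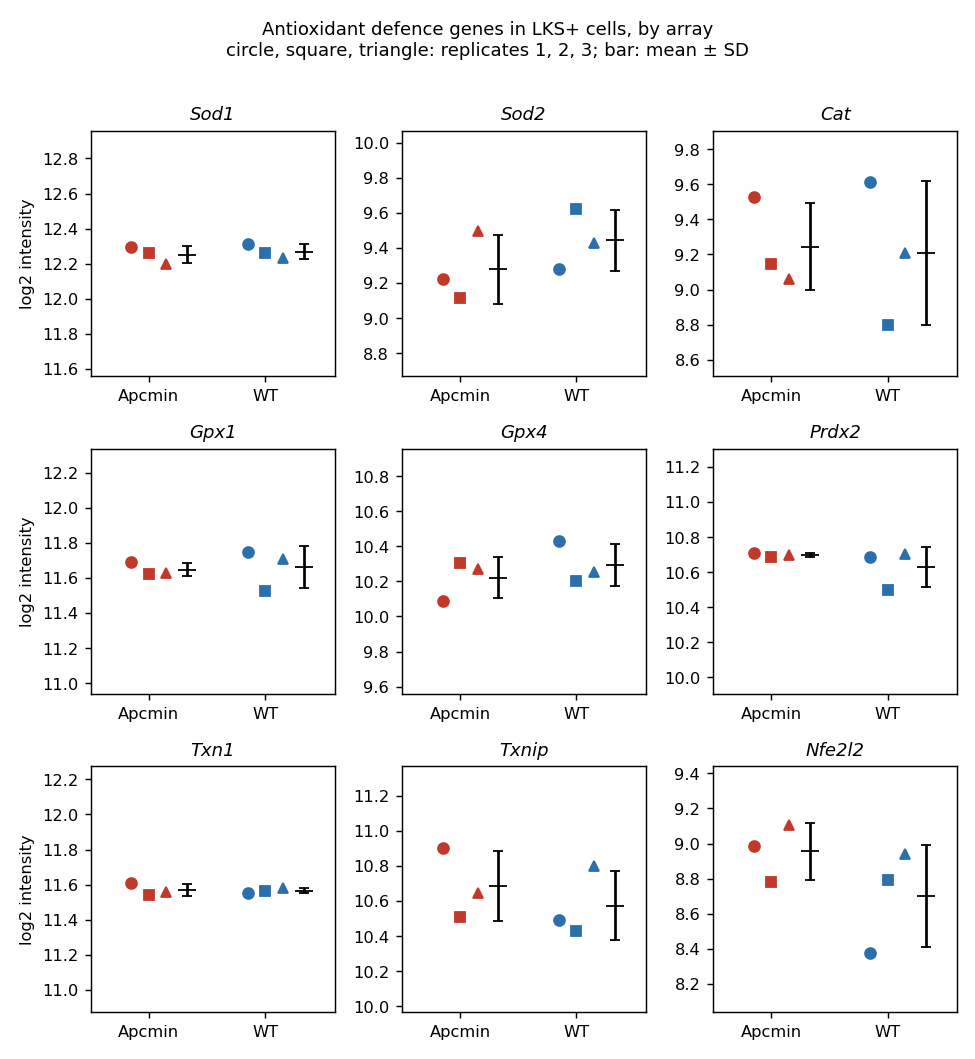
Log2 intensity of the 9 measured antioxidant defence genes on each array, Apcmin (red) left of WT (blue), with symbols for replicates 1 to 3 and the mean ± SD beside them; each panel spans the same 1.4 log2 units. The Apcmin and WT points overlap in every panel, and the points lie closest together for Txn1, within 0.07, and farthest apart for Cat, over 0.82.

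The superoxide dismutases were bright in both genotypes. Sod1 encodes the copper-zinc enzyme of the cytosol, and its probe set 1451124_at was at 12.30, 12.26 and 12.20 in Apcmin and at 12.31, 12.26 and 12.23 in WT. The Sod1 difference was -0.02 (SE 0.13, limma adjusted p = 0.992), and the values of the genotypes interleaved. Sod2 encodes the manganese enzyme of mitochondria, and its probe set 1448610_a_at was at 9.22, 9.11 and 9.50 in Apcmin and at 9.28, 9.62 and 9.43 in WT. Its mean was 0.17 lower in Apcmin, a fold of 0.891, but Apcmin replicate 3 lay above WT replicates 1 and 3 (adjusted p = 0.954). Leaving out that array gave -0.28, whereas leaving out Apcmin replicate 2 or WT replicate 2 gave -0.08 each. A further Sod2 probe set pointed the other way at a similar brightness, with 9.40, 8.87 and 9.11 in Apcmin against 8.48, 8.92 and 9.28 in WT and a difference of 0.23. Another Sod2 probe set, with a mean of 8.66, was lower in Apcmin, with a difference of -0.16. A dim one, with a mean of 4.27, differed by 0.14.

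Catalase had the widest range of the 9 genes over the arrays. Cat, whose product splits hydrogen peroxide in peroxisomes, was at 9.53, 9.14 and 9.06 in Apcmin and at 9.61, 8.80 and 9.21 in WT. WT replicates 1 and 2 marked the top and the bottom of the whole range, so the spread within WT (SD 0.41) exceeded the difference of 0.04 between the genotypes (95% interval -0.55 to 0.62). Leaving out WT replicate 2 turned the Cat difference to -0.17 and leaving out Apcmin replicate 1 to -0.10, while leaving out WT replicate 1 gave 0.24. A dimmer Cat probe set, with a mean of 7.56, was also higher in Apcmin, by 0.21, but the order of the arrays differed. WT replicate 1 was at 7.37 there, below every Apcmin value, and WT replicate 2 was again the lowest, at 7.16. Profiles over the 6 arrays were compared for genes whose mean log2 intensity reached 6. The genes closest to the profile of the brighter Cat probe set were H2aw, Ciao2a and Zbtb33. Their root-mean-square differences from the Cat profile, each profile centred on its mean, were 0.03, 0.06 and 0.08, where the median over the 8657 genes compared was 0.32. The smallest of so many differences over 6 arrays are small by selection, so a link between these genes and Cat cannot be read from them.

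The glutathione peroxidases did not pass. Gpx1, the main cytosolic enzyme of the family, was at 11.69, 11.62 and 11.63 in Apcmin and at 11.75, 11.52 and 11.71 in WT. The Gpx1 difference was -0.01 with an interval from -0.34 to 0.31, and the Apcmin values lay inside the WT range. Gpx4, which reduces lipid peroxides in membranes, was at 10.09, 10.30 and 10.27 in Apcmin and at 10.43, 10.20 and 10.25 in WT. Its difference was -0.07, with Apcmin replicate 1 lowest and WT replicate 1 highest. It was -0.0061 without Apcmin replicate 1, -0.0064 without WT replicate 1, and -0.12 when Apcmin replicate 2 or WT replicate 2 was the array omitted. The other Gpx4 probe set differed by 0.08.

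The brightest probe sets of Prdx2 and Txn1 varied little over the arrays. Prdx2, a peroxiredoxin abundant in red blood cells, was at 10.71, 10.69 and 10.70 in Apcmin and at 10.69, 10.50 and 10.70 in WT. The Apcmin arrays agreed within an SD of 0.01, and the difference of 0.07 came with 1 low WT array: without WT replicate 2 it was 0.003. The other Prdx2 probe set, with a mean of 8.98, varied more, with an SD of 0.14 in Apcmin and 0.23 in WT. Its difference was -0.12. Txn1, the cytosolic thioredoxin, was at 11.61, 11.54 and 11.56 in Apcmin and at 11.55, 11.57 and 11.58 in WT. Its difference was 0.003 with an interval from -0.30 to 0.31. That interval is set largely by the spread limma shares across all probe sets, since the SD of Txn1 was 0.04 in Apcmin and 0.01 in WT.

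Txnip gave values that depended on the probe set. The brighter probe set, 1415996_at, was at 10.90, 10.51 and 10.65 in Apcmin and at 10.49, 10.43 and 10.80 in WT, a difference of 0.11 (adjusted p = 0.958). The size moved with single arrays. Leaving out Apcmin replicate 1 gave 0.0063 and leaving out WT replicate 2 gave 0.04, while omitting Apcmin replicate 2 gave 0.20 and omitting WT replicate 3 gave 0.23. The other probe set, 1415997_at, was at 7.99, 7.80 and 7.72 in Apcmin and at 8.10, 8.49 and 7.996 in WT. Its difference was -0.36 with an unadjusted p of 0.092 in limma, the lowest of the 22 probe sets, and an adjusted p of 0.954. The highest Apcmin value of this probe set and the lowest WT value nearly met, and the average of both probe sets differed by -0.12. Arrdc4, a relative of Txnip that is also switched on by Mlxip and Mlx, differed by -0.21 (7.20 ± 0.16 in Apcmin and 7.41 ± 0.39 in WT, adjusted p = 0.954).

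Nfe2l2 had the largest difference of the 9, and it did not pass. The gene was at 8.98, 8.78 and 9.10 in Apcmin and at 8.38, 8.79 and 8.94 in WT. The mean was 0.25 higher in Apcmin, a fold of 1.19, with a standard error of 0.19 and an interval from -0.21 to 0.72 (adjusted p = 0.954). WT replicate 1 was the low value, and without it the difference was 0.09, against 0.37 without WT replicate 3. The dimmer Nfe2l2 probe set also had a higher mean in Apcmin, by 0.18, but its WT values ranged from 4.58 to 6.26. The order of the arrays differed: WT replicate 1 was the highest of all 6 arrays there, and WT replicate 2 the lowest.

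All 22 probe sets of the 9 genes were examined, and 0 passed, with 0 at an unadjusted p under 0.05 (3.81% over all probe sets). The mean was higher in Apcmin for 13 of them and lower for 9. In 5 of the 8 genes with more than 1 probe set, Sod1, Sod2, Gpx4, Prdx2 and Txnip, the probe sets did not share a direction, while those of Cat, Txn1 and Nfe2l2 were all higher in Apcmin. Values did not overlap between genotypes in 2 of the 22, a dimmer Sod1 probe set (7.09, 7.17 and 7.23 in Apcmin and 6.999, 7.09 and 7.02 in WT) and the second Txnip probe set, beside 7.88% of all probe sets. With the brightest probe set, the 95% interval of the difference lay within 1.5-fold (0.58 on the log2 scale) in either direction for 7 of the 9 genes. The exceptions were Cat and Nfe2l2. The share was 79.6% over the 4871 genes as bright and 43.2% over all genes. Intervals of dimmer probe sets of the 7 reached past 1.5-fold in some cases, to -0.87 for Sod1, 0.82 for Sod2, 1.26 for Txn1 and -0.79 for Txnip.

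**Figure D2:**
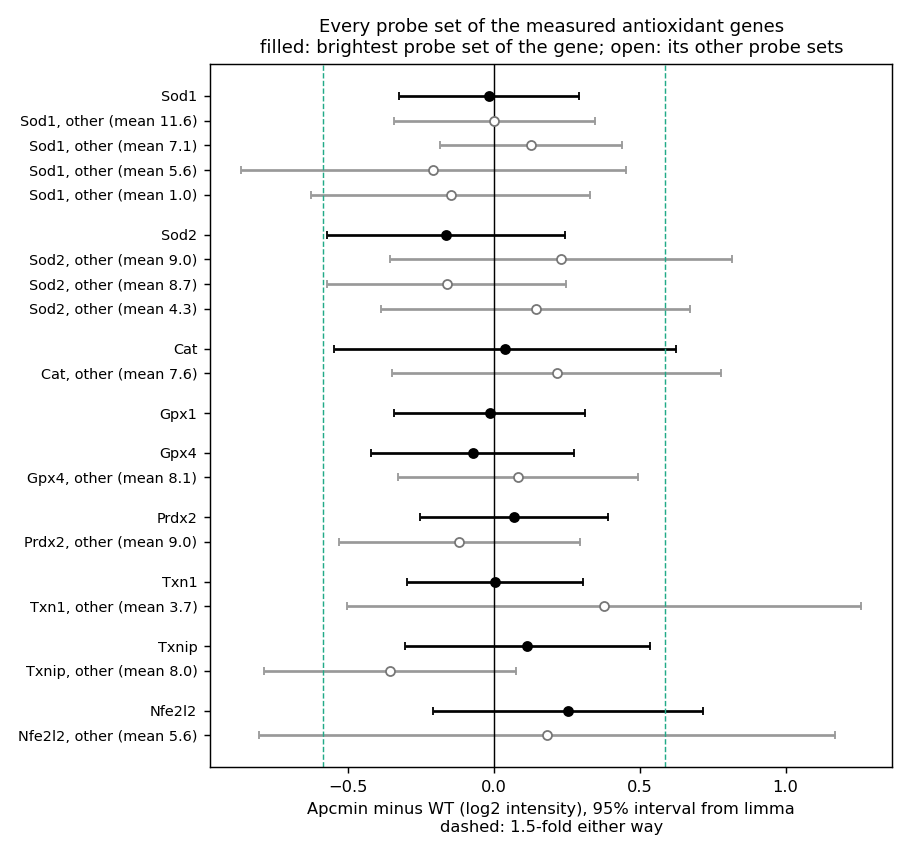
Difference between Apcmin and WT (log2 intensity, horizontal axis) with its 95% interval from limma for each of the 22 probe sets, filled for the probe set that stands for the gene and open for the others, with the mean log2 intensity of the others in their labels. Every interval crosses 0, and the filled intervals of Cat and Nfe2l2 reach past the dashed lines at 1.5-fold.

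The wider antioxidant network was covered by 75 further genes in 7 lists, of which 70 were measured. None passed in limma, and 3 of the 70 had an unadjusted p under 0.05, Nqo1 higher in Apcmin and Hmox1 and Sod3 lower, beside 3.11% of all genes. That count was 1 without Apcmin replicate 3, 1 without WT replicate 2 and 5 without WT replicate 3, and the genes behind it changed with the arrays. The median difference of the 70 was -0.03, with 27 higher and 43 lower. Of the 57 whose mean log2 intensity reached 6, 22 were higher and 35 lower (61.4% lower, median -0.02), where genes that bright were lower in 43.7% and had a median of 0.02. Of the 13 dimmer ones 5 were higher and 8 lower, where 69.1% of dim genes were lower. Values did not overlap between the genotypes in 7 of the 70. In 2 of these, Nqo1 and Mafk, a small Maf partner of Nrf2, the Apcmin values were the higher ones, beside 2.97% of all genes. In the other 5, Sod3, Prdx4, Msra, Msrb1 and Cyba, they were the lower ones, beside 4.76% of all genes.

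**Figure D3:**
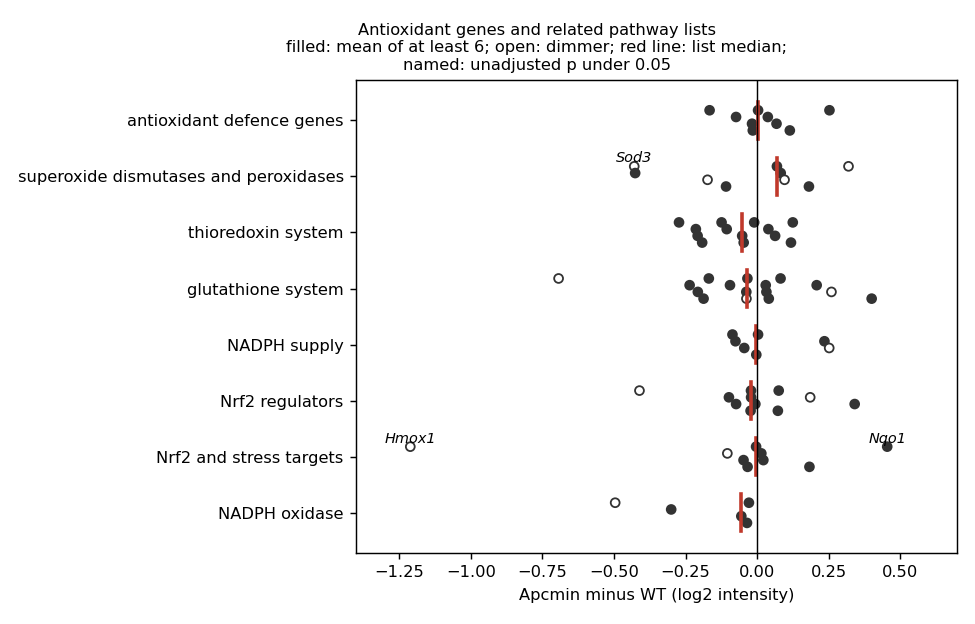
Difference between Apcmin and WT (log2 intensity) for each antioxidant defence gene and each measured gene of the 7 related lists, filled for genes whose mean log2 intensity reached 6 and open for dimmer ones, with the list median as a red line. List medians lie between -0.06 and 0.07, and Hmox1 at -1.21 lies farthest from 0.

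The list of Nrf2 and stress targets had 4 of 9 genes higher in Apcmin and 5 lower, with a median of -0.0035 and 0 past the threshold. Nqo1, a quinone reductase often used as a readout of Nrf2, was at 6.94, 6.65 and 7.11 in Apcmin and at 6.41, 6.34 and 6.58 in WT. Every Apcmin value lay above every WT value, and the difference was 0.45 with a standard error of 0.17 (limma, unadjusted p = 0.034, adjusted p = 0.954). Leaving out single arrays gave 0.35 to 0.58, with unadjusted p-values of 0.018 to 0.12. Gclm, the modifier subunit of the enzyme that starts glutathione synthesis, was at 8.76, 8.17 and 8.60 in Apcmin and at 7.96, 8.09 and 8.27 in WT, a difference of 0.40 with overlapping values. Its catalytic partner Gclc differed by 0.08 and Txnrd1, which reduces thioredoxin, by 0.06.

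Hmox1, heme oxygenase and also an Nrf2 target, had a lower mean in Apcmin. It was at 4.36, 3.27 and 3.99 in Apcmin and at 5.64, 5.26 and 4.35 in WT, all dim values, with a difference of -1.21 (unadjusted p = 0.020, adjusted p = 0.954). Apcmin replicate 1 and WT replicate 3 met at the middle of the range. Leaving out single arrays gave differences from -1.58 to -0.91, and unadjusted p-values ran from 0.0045 to 0.065. With all arrays in limma the unadjusted p was 0.00062 with the Y-linked level as a covariate (adjusted p = 0.891). It was 0.030 with values under 4 raised to 4. Over the 4 arrays low in Y-linked genes, a setting chosen after seeing the data, the unadjusted p was 0.0037. Hmox1 is abundant in macrophages, which the lineage-negative gate of the sort is meant to remove along with other mature cells. Some markers of mature cells were dim and had lower means, as did 69.1% of dim genes in general: Cd14 of monocytes was at 3.31 ± 0.51 in Apcmin and 4.33 ± 0.55 in WT, and Slc4a1 of red cells at 2.98 ± 0.36 in Apcmin and 4.46 ± 0.36 in WT (SD, n = 3 each). Each had the most negative difference of its marker list, -1.02 for Cd14 and -1.49 for Slc4a1, where the median of dim genes was -0.12. The values did not overlap between the genotypes in either, beside 4.76% of all genes without overlap and lower in Apcmin. In limma the unadjusted p was 0.025 for Cd14 and 0.00075 for Slc4a1, and the adjusted p was 0.954 for both. Hba-a1 of red cells, near the bottom of the scale, differed by -0.45, also without overlap. Rhag of red cells was also dim, and its mean was 0.89 higher in Apcmin. The mean log2 intensity reached 6 in 10 of the 11 granulocyte and monocyte markers, and after Cd14 the most negative difference was -0.18, for Csf1r. Of the 11 granulocyte and monocyte markers 8 had a lower mean in Apcmin, with summed intensities of 20445 to 21440 in Apcmin and 20772 to 22819 in WT. Of the 9 erythroid markers measured 4 had a lower mean in Apcmin, with sums of 5397 to 8255 in Apcmin and 5143 to 7491 in WT. All 6 measured lymphoid markers were dim and had lower means in Apcmin (5 of 6 after a further quantile normalization), with sums of 65.5 to 90.1 in Apcmin and 84.1 to 111 in WT. The deposited values are all positive, so they cannot show that a marker was absent, and the part of other cells in the Hmox1 values was not tested. In sorted cells measured in bulk, fewer cells of a type and less RNA per cell cannot be told apart.

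Regulators of Nrf2 did not pass either. Keap1, its inhibitor, was at 8.91 ± 0.04 in Apcmin and 8.91 ± 0.12 in WT, a difference of -0.01. Of 11 regulators 4 were higher and 7 lower in Apcmin, and their median difference was -0.02. The lowest p-values were those of Rbx1 (-0.41, from a dim probe set) and Bach2 (0.34). Rbx1 is a subunit of the ubiquitin ligase that degrades Nrf2, and Bach2 is a repressor that binds related sites. Neither passed (adjusted p = 0.954 for both in limma), and in Bach2 a single array, Apcmin replicate 2 at 7.79, lay above the other values, which reached 7.19.

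Subunits of the phagocyte NADPH oxidase, which makes superoxide, had a lower mean in Apcmin in 5 of 5 measured genes, with a median of -0.06 and 0 past the threshold. In 4 of the 5 the mean log2 intensity was over 6, a range in which 43.7% of genes had a lower mean and the median was 0.02. After a further quantile normalization 5 of 5 were again lower, with a median of -0.08. Over all genes that reached 6 the median was then -0.0025, with 4276 higher and 4382 lower. Cyba, the smaller membrane subunit, was at 8.67, 8.59 and 8.49 in Apcmin and at 8.996, 8.91 and 8.74 in WT. Its values did not overlap between the genotypes, with a difference of -0.30 (unadjusted p = 0.078, adjusted p = 0.954). Cybb, its catalytic partner, was at 5.76, 5.04 and 5.31 in Apcmin and at 5.56, 5.89 and 6.15 in WT, with Apcmin replicate 1 above WT replicate 1 and a difference of -0.50 (limma, unadjusted p = 0.080). The average of the Cybb probe sets differed by -0.57 (unadjusted p = 0.0042, adjusted p = 0.930). With the brightest probe set the unadjusted p was 0.039 after a further quantile normalization and 0.13 with the replicate number as a block. The cytosolic components Ncf1, Ncf4 and Rac2 differed by -0.03, -0.03 and -0.06.

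**Figure D4:**
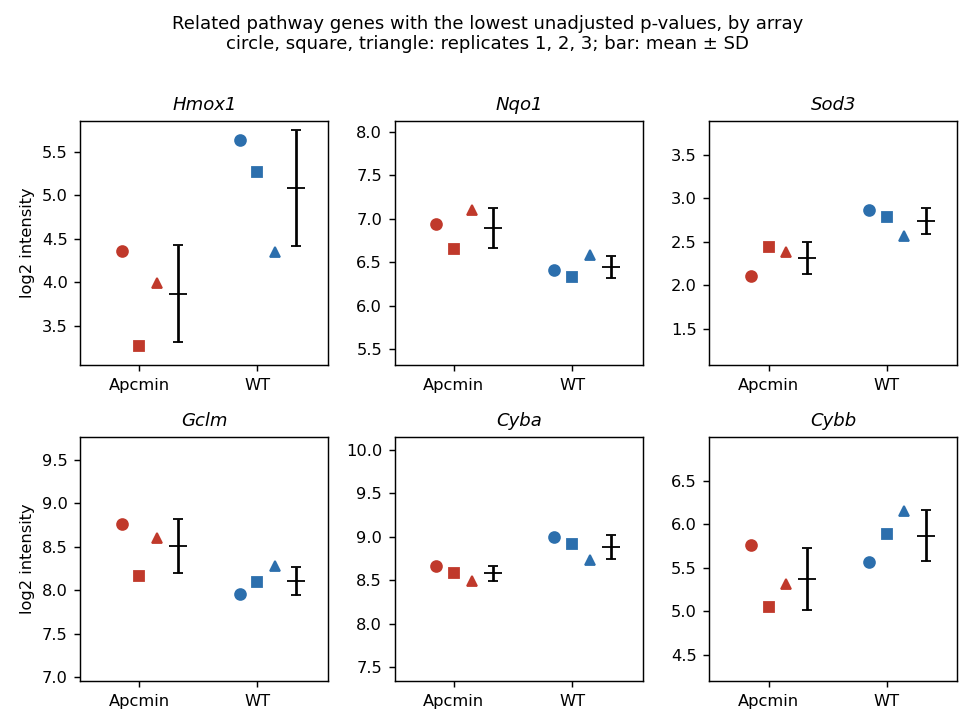
Log2 intensity on each array, Apcmin (red) left of WT (blue), with the mean ± SD, for 6 related genes with low unadjusted p-values; each panel spans the same 2.8 log2 units. Nqo1 and Gclm have higher means in Apcmin and Hmox1, Sod3, Cyba and Cybb lower ones, and the values do not overlap in Nqo1, Sod3 and Cyba.

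Other enzymes that remove superoxide and peroxides were divided, with 5 of 9 higher and 4 lower. Sod3, the secreted superoxide dismutase, was near the bottom of the scale at 2.31 ± 0.18 in Apcmin and 2.74 ± 0.15 in WT, a difference of -0.43 (unadjusted p = 0.036, adjusted p = 0.954). The average of its probe sets differed by -0.22 (unadjusted p = 0.21), and the unadjusted p was 0.084 with the replicate number as a block, 0.093 with a mean-variance trend, 0.052 with the Y-linked level as a covariate and 0.056 after a further quantile normalization. Gpx7, a peroxidase of the endoplasmic reticulum, differed by -0.43 with overlapping values. Prdx3, the mitochondrial peroxiredoxin, differed by 0.07.

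In the thioredoxin list 4 of 13 genes were higher and 9 lower, with a median of -0.05. Msra and Msrb1, which repair oxidized methionine, were lower by 0.27 and 0.21 on the log2 scale. Both had values that did not overlap between the genotypes, and in both Apcmin replicate 3 was the low array, at 8.05 for Msra and 8.21 for Msrb1. Glutathione genes were 7 higher and 9 lower of 16 (median -0.04), with Slc7a11, the cystine carrier, at 1.48 ± 0.29 in Apcmin and 2.17 ± 0.82 in WT. Genes that supply NADPH, the reductant these systems draw on, were 3 higher and 4 lower of 7. Nnt, the mitochondrial transhydrogenase, differed by 0.24 and Me1 by 0.25 at a dim level.

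**Figure D5:**
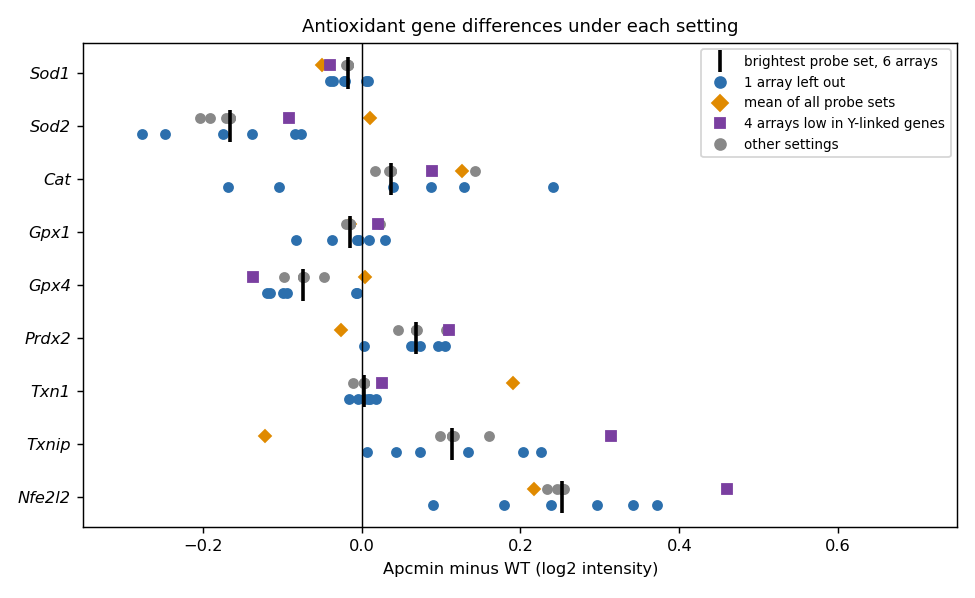
Difference between Apcmin and WT (log2 intensity) of the 9 antioxidant defence genes with the brightest probe set and all arrays (black bars) and under 15 other settings (points). Averaging all probe sets (orange) moves Txnip to -0.12 and Txn1 to 0.19, and the 4 arrays low in Y-linked genes (purple) give 0.46 for Nfe2l2 and 0.31 for Txnip.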

How the data were processed

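The deposited table holds linear, positive intensity values that the authors had normalized, and its columns matched the 6 samples. Per the submitters' processing notes RMA was used, with no version or background step stated. After removal of 64 controls from 45101 probe sets, log2 was taken with no pseudocount. In the platform annotation 34945 probe sets had exactly 1 symbol, 932 had several and 9160 had none, and 34741 matched RefSeq (GRCm38.p6) by Entrez identifier with 0 symbols changed.

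Apcmin was compared with WT in limma 3.58.1 (R 4.3.3; lmFit and eBayes on genotype alone), with p-values adjusted by Benjamini-Hochberg over 45037 probe sets at a threshold of 0.05. The step was tested on simulated data. No detection calls were used, dim values can reflect background, and 3 arrays per genotype limit the precision.

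Named were all 10 antioxidant genes, related genes with an unadjusted p under 0.05, the 2 lowest p-values of each list and a fixed set. The members, the lists and this rule were chosen with earlier results of these data known.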

Additional observations from a re-analysis of the deposited data

How the results depend on the processing

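In limma 0 of the 9 antioxidant genes, 0 of the related genes and 0 of all probe sets passed with the 6 arrays and under each of 15 other settings, while between 1267 and 5864 probe sets had an unadjusted p under 0.05 in the settings that left out 1 array. The lowest adjusted p of an antioxidant gene was 0.474, for Nfe2l2 without WT replicate 3. Of 135 differences of single antioxidant genes under other settings, 120 kept their direction and 15 did not. Averaging all probe sets gave 0.011 for Sod2, 0.0048 for Gpx4, -0.026 for Prdx2 and -0.12 for Txnip, which follows from probe sets of a gene that disagree. A further quantile normalization gave -0.011 for Txn1, and array weights gave 0.024 for Gpx1; the cause was not tested. Leaving out 1 array at a time gave -0.17 to 0.24 for Cat, -0.016 to 0.018 for Txn1, -0.040 to 0.0077 for Sod1, -0.083 to 0.029 for Gpx1, -0.28 to -0.076 for Sod2, -0.12 to -0.0061 for Gpx4, 0.0030 to 0.10 for Prdx2, 0.0063 to 0.23 for Txnip and 0.09 to 0.37 for Nfe2l2. It also gave 0 to 2 antioxidant genes without overlap (Nfe2l2 without Apcmin replicate 2, Sod2 without Apcmin replicate 3, Gpx1 without WT replicate 2). In those settings 17.2%, 16.9% and 15.1% of all genes, in that order, did not overlap. The number of related genes at an unadjusted p under 0.05 in limma was 1 to 5, against 3 with all arrays. The 5 came without WT replicate 3, when 32.8% of all genes did not overlap and the 2 antioxidant genes were Prdx2 and Txnip. Over the 4 arrays low in Y-linked genes, a setting chosen after seeing the data, 3 antioxidant genes (Prdx2, Txnip and Nfe2l2) and 44.7% of all genes did not overlap, which fewer arrays make more frequent, and Gpx1 differed by 0.021.

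Replicate numbers are shared between the genotypes, but deviations of same-numbered arrays correlated at -0.03, -0.07 and -0.26 over genes, and no array correlated best with its own number. With the replicate number as a block, 0 antioxidant genes passed, their median difference was 0.003, and 3 related genes had an unadjusted p under 0.05, Hmox1, Nqo1 and Slc7a11, while Sod3 was at 0.084. Overlap was not recomputed for the block, the Y-linked covariate, the trend or the weights, which leave the values as they are.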
